A study of Mus musculus and Acomys cahirinus with 25 samples.

Results

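The dermis of wounds from mice lacking Twist1 in keratinocytes was compared with the dermis of wild-type wounds. The series holds 25 RNA-seq libraries, and 5 of them make up this comparison, chosen by tissue, position, genotype and time: 2 of K14-Cre-Twist1 dermis (KO) and 3 of wild-type (WT) dermis, all taken from the wound center 14 days after wounding (PWD14). The study compared 2 with 3 biologically independent experiments. Which 3 of the 5 wild-type wound center libraries these were is not given in the sources used here, and the 3 taken are those numbered next to the K14-Cre-Twist1 pair. Whether an experiment held 1 animal or several is not given in the sources used here. K14-Cre-Twist1 mice carry a conditional null allele of Twist1 and the Tg(KRT14-cre)1Amc/J transgene, which makes Cre recombinase under the promoter of keratin 14, a keratin of the basal epidermis, so that Twist1 is removed from keratinocytes and not from the fibroblasts of the dermis. The controls were Twist1+/+ mice without the deletion. The mice were 4 weeks old in both genotypes, and both sexes were used. C57BL/6J is the main mouse of the study, and the genetic background and sex of the mice behind each library are not given in the sources used here. A square full-thickness wound with a side of 1 cm was made on the back, a 3 mm punch was cut at the middle of the healed wound, and epidermis and dermis were parted by hand. The dermis libraries were strand-specific, single-end and 75 bp long. A further 2 libraries of wild-type wound center dermis and 2 of wild-type wound margin dermis, also from PWD14, were used beside them, and 4 libraries of wild-type epidermis served to recognize epidermal RNA.

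Twist1 is a basic helix-loop-helix transcription factor that binds E-box sequences, is best known for its part in epithelial-mesenchymal transition (EMT), and is abundant in skin fibroblasts. In large mouse wounds new hair follicles can form in the center of the scar (wound-induced hair neogenesis, WIHN): the epidermis makes a placode, the dermis below it gathers into a dermal condensate that becomes the dermal papilla, and the signals between them run through Wnt/β-catenin, BMP, Hedgehog and FGF. The surrounding wound dermis consists of fibroblasts and contractile myofibroblasts that deposit and remodel collagen, vessels, and immune cells. The comparison asks which dermal genes differ when the epidermis above lacks Twist1.

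The 5 libraries held between 19844050 and 28615931 reads on genes. Expression is given as CPM, a gene's reads relative to all reads on genes after scaling with the TMM method (for the further wild-type and margin libraries, after scaling all 9 dermis libraries together), and 3 reads, the smallest amount taken as detectable, corresponded to 0.105 to 0.151 CPM, a floor that covers counting error only. K14-Cre-Twist1 library 2 stood apart in 3 ways. First, it lacked many genes altogether: of the 10024 genes with at least 5 CPM in every wild-type library, which would give about 108 reads or more at that level, 562 had no read in K14-Cre-Twist1 library 2, against 3 in K14-Cre-Twist1 library 1, 11 and 23 in the further wild-type libraries, 2 and 1 in the margin libraries and 0 to 19 in a wild-type library judged by the other two. At an equal depth of 19413261 reads it held 12039 genes with a read, and the other 8 dermis libraries 13490 to 15735. A value of 0 in this library is therefore not read as absence of the RNA. Second, 13.5% of its reads fell on the 3216 genes that were at least 4-fold higher in wild-type epidermis than in the 3 wild-type dermis libraries, against 1.41% in K14-Cre-Twist1 library 1, 1.06 to 1.24% in the wild-type libraries and 42.8 to 49.3% in epidermis. Both K14-Cre-Twist1 libraries also had more mitochondrially encoded mRNA, 6.28 and 4.97% of reads, than the 3 wild-type libraries with 1.99 to 2.72% and the further ones with 3.42 and 1.69%. In the further wild-type libraries 12.4 and 10.9% of reads fell on no gene, against 6.31 to 7.76% in the 5 libraries compared. The part of these features in the results below was not tested, and counts are also given without K14-Cre-Twist1 library 2 and against the further wild-type libraries.

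**Figure D1:**
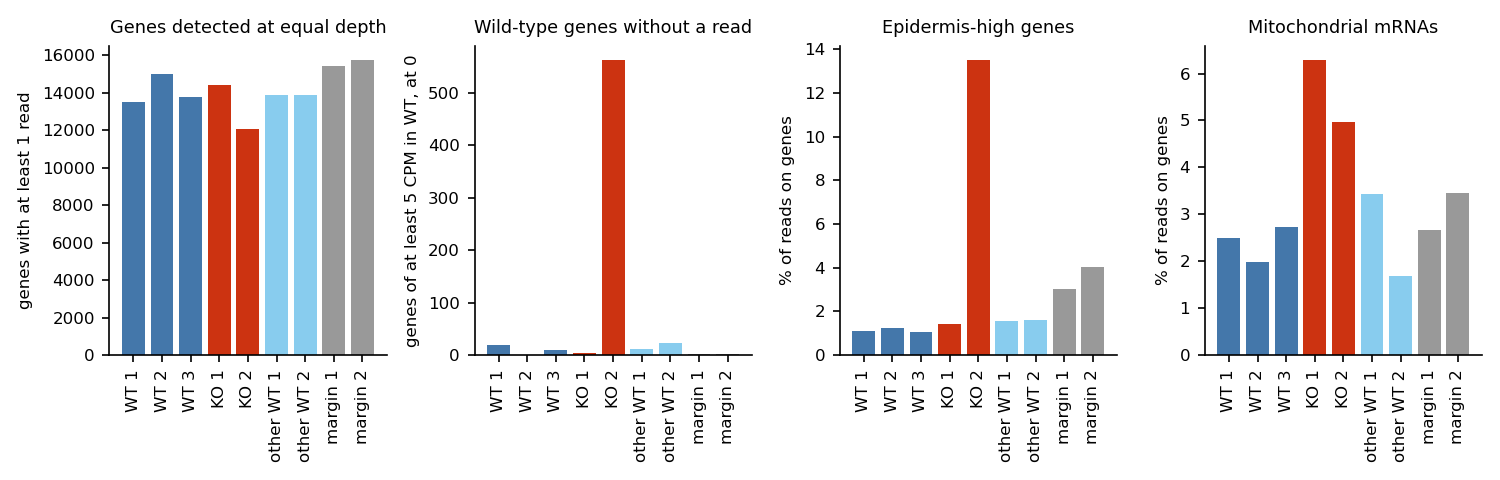
Features of the 9 dermis libraries (bars, 1 library each): genes with at least 1 read at equal depth, genes of at least 5 CPM in the wild-type libraries that had no read, and the percentage of reads on genes higher in epidermis and on mitochondrially encoded mRNAs. K14-Cre-Twist1 library 2 (KO 2) had 562 wild-type genes at 0 and 13.5% of reads on epidermis-high genes, and KO 1 and KO 2 had 6.28 and 4.97% mitochondrial mRNA.

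Twist1 itself, on chromosome 12, was read in every dermis library, at 58.3, 35.6 and 107 CPM in WT and 75.5 and 42.8 CPM in KO. The groups overlapped, and the log2 fold change of -0.19 ± 0.47 (SE) had an unadjusted p of 0.704. Wild-type wound center epidermis held 9.95 and 11.8 CPM, below every dermis library. The deletion is in keratinocytes, so the dermis level checks neither the labels nor the loss of Twist1 from the epidermis. The direction turned with the libraries used, from 0.16 without K14-Cre-Twist1 library 2 to -1.11 (unadjusted p = 0.0203) against the further wild-type libraries, which held 112 and 154 CPM. Among 9 tested EMT transcription factors, 0 were higher and 2 lower at an unadjusted p under 0.05, where 6.98% of all tested genes were higher and 4.54% lower. Snai1, a repressor of E-cadherin, was one of them with 66.02, 104 and 43.7 CPM in wild type and 29.7 and 15.8 CPM in K14-Cre-Twist1 and a log2 fold change of -1.65 ± 0.47, but its further wild-type values of 21.98 and 24.9 CPM lay between the K14-Cre-Twist1 values. Tcf3, which encodes the E proteins that pair with Twist1, was the other with 99.9, 102 and 106 CPM in WT and 73.1 and 61.5 CPM in KO, a log2 fold change of -0.61 ± 0.24. Zeb1, Zeb2 and Twist2 had log2 fold changes of 0.01, 0.11 and 0.32, each with an unadjusted p above 0.3.

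Across the transcriptome few genes passed correction for multiple testing. With edgeR's quasi-likelihood test, 8 of 14163 tested genes had an FDR (Benjamini-Hochberg adjusted p) under 0.05, 0.0565% of those tested, 7 of them higher and 1 lower in K14-Cre-Twist1 dermis. The 5 that are described are Krt14, Krt6a and Ly6d of keratinocytes, the interferon-inducible gene Ifi202b and the matrix glycoprotein gene Tnxb, and all 5 rose. Leaving out 1 wild-type library left 1 or 2 genes with an FDR under 0.05, and of the 5 genes Ifi202b alone among them, without wild-type library 2. The other 3 belong to X inactivation or the Y chromosome and are not described. Because the labels give no sex, genotype and sex of the animals cannot be told apart in these 5 libraries. At an unadjusted p under 0.05, the looser of the thresholds that the study's methods name, 988 genes were higher (6.98%) and 643 lower (4.54%), and such genes are called higher or lower below, without a claim that they passed correction. These shares are the background for the counts of list members below. Against the further wild-type libraries the shares were 5.53% higher and 3.14% lower. The spread behind the test was wide: the biological coefficient of variation was 0.840 over the 5 libraries and 0.361 within wild type. Log CPM of the K14-Cre-Twist1 pair correlated across genes at r = 0.708, and of the wild-type pairs at 0.853 to 0.897, as a description.

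The genes with the largest changes belonged to keratinocytes. Of 25 tested keratinocyte markers, 23 were higher in K14-Cre-Twist1 dermis and 0 lower, with a median log2 fold change of 9.43 against -0.07 over all tested genes. That median was 4.73 without library 2 and 4.67 against the further wild-type libraries. The median log2 ratio to the wild-type mean was 3.06 in library 1 and 8.38 in library 2. Of 27 markers counted, 7 had no read in the 3 wild-type libraries, so the size of their fold changes has no measured wild-type level behind it. Those of the 7 that were tested entered through their K14-Cre-Twist1 reads alone and could come out only higher. The count of higher markers is to that extent built in. Krt14 and Krt6a also passed at an FDR under 0.05. Without library 2, 14 were higher and 1 lower, where 2.89% and 3.12% of all tested genes were, and against the further wild-type libraries 22 were higher and 0 lower. Krt14, the basal keratin whose promoter drives the Cre transgene, was at 1.09, 3.01 and 6.86 CPM in wild type and 409.9 and 4580.3 CPM in K14-Cre-Twist1. It rose in both, to 3.63 and 42.9% of its mean level in wound center epidermis, with a log2 fold change of 9.42 ± 1.12 and an FDR of 0.0474. Krt5, its basal partner, was at 3.21, 2.67 and 19.9 CPM in WT and 188 and 3029 CPM in KO (log2 fold change 7.52 ± 1.23, FDR 0.149). The suprabasal pair followed: Krt1 was at 0, 0 and 8.29 CPM in wild type and 167 and 10116 CPM in K14-Cre-Twist1. Krt10 was at 3.67, 1.63 and 20.9 CPM in WT and 169 and 12163 CPM in KO. Krt6a, a keratin of wounded and hyperproliferative epidermis, rose from 1.45, 0.741 and 2.17 CPM to 41.6 and 356 CPM (log2 fold change 7.05 ± 0.91, FDR 0.0474), although reads may be shared with its close paralog Krt6b. Ly6d, a membrane protein of keratinocytes that takes part in their adhesion, rose from 1.06, 0 and 0.930 CPM to 61.1 and 1465 CPM (log2 fold change 10.04 ± 1.29, FDR 0.0293). In each of these the K14-Cre-Twist1 values lay above every wild-type value, and library 2 lay several-fold above library 1.

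The 15 genes named for the largest higher fold change, taken among genes with an unadjusted p under 0.05, no overlap between groups and 5 CPM or more on average where they were highest, had no read in any of the 3 wild-type libraries. They entered the test through their K14-Cre-Twist1 reads alone and could come out only higher. Apart from Ifi202b they were epidermal genes, many of them known from the granular and cornified layers or from desmosomes: Krtdap, Rptn, Krt16, Klk7, Dsg1a, Spink5, Pla2g2f, Dsc3, Them5, Dsc1, Crct1, Psapl1, Tgm3 and Lypd3. Krtdap, a secreted protein of differentiating keratinocytes, was at 37.2 and 2333 CPM, at least 246-fold higher in library 1 than the floor of the 3 wild-type libraries. The further wild-type libraries held 6.52 and 32.8 CPM of it. Rptn, a cornified envelope precursor, was at 1.501 and 1951 CPM, so its mean rested on library 2. Over the 14 genes, library 1 held 0.775 to 37.2 CPM and library 2 196 to 2333 CPM. For Rptn, Krt16, Klk7, Spink5, Pla2g2f, Dsc1, Psapl1 and Lypd3 a further wild-type library exceeded K14-Cre-Twist1 library 1, as for Klk7 with 43.4 against 2.32 CPM. For Krtdap, Dsg1a, Dsc3, Them5, Crct1 and Tgm3 no further wild-type library did. Adhesion and barrier genes of the living layers behaved alike, with Perp at 40.7 and 1782 CPM, Dsp at 32.2 and 1658 CPM and Sfn at 24.1 and 665 CPM, against at most 0.889 CPM for any of these in wild type. Lor, a protein of the cornified envelope, was at 0 CPM in library 1 and 980.2 CPM in library 2. The epithelial regulator Trp63 was at 1.94, 2.32 and 0.620 CPM in wild type and 4.02 and 85.7 CPM in K14-Cre-Twist1.

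Set against wound center epidermis, the median tested keratinocyte marker stood at 29.7% of its epidermal level in K14-Cre-Twist1 library 2, at 0.685% in library 1 and at no more than 0.0123% in the wild-type libraries. In bulk RNA, more keratinocytes in the punch and more RNA per keratinocyte cannot be told apart. The further wild-type wound center libraries also carried such RNA, with Krt14 at 249 and 37.2 CPM and Krt10 at 90.1 and 131 CPM, and the margin libraries held 370.2 and 446 CPM of Krt14. Summed over 27 markers, the list stood at 119 to 263 CPM in the 3 wild-type libraries, at 954 and 716 CPM in the further ones, at 3214 and 5169 CPM at the margin, and at 1302 and 40436 CPM in K14-Cre-Twist1 dermis. K14-Cre-Twist1 library 1 was thus above the further wild-type libraries and below the margin, while library 2 exceeded all the others. Of the 988 higher genes, 481 (48.7%) were among the epidermis-high genes, which made up 6.799% of all tested genes, and of the 643 lower genes 1 was. Epidermis-high genes are by definition low in the same 3 wild-type libraries that the fold change is set against, so part of this contrast is built in.

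**Figure D2:**
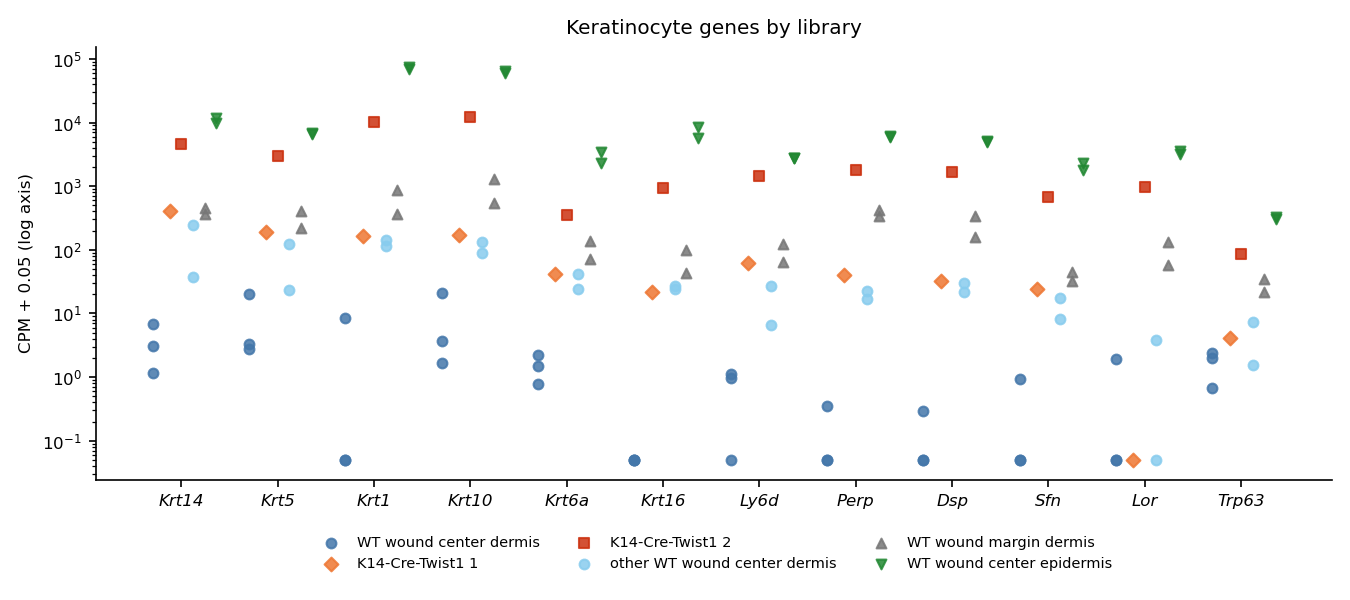
Keratinocyte genes in CPM (log axis, 0.05 added so that 0 can be drawn), 1 point per library, for wild-type, K14-Cre-Twist1, further wild-type and margin dermis and for wound center epidermis. K14-Cre-Twist1 library 1 lies near the further wild-type libraries, for Krt14 at 409.9 against 249 and 37.2 CPM, and library 2 lies nearer to epidermis.

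Most of the differences were larger in library 2. Taken against the wild-type mean with 0.5 CPM added, library 2 deviated further than library 1 in 901 of the 988 higher genes and in 559 of the 643 lower genes. The median log2 ratio of the higher genes was 0.87 in library 1 and 2.80 in library 2, and for the lower genes it was a decrease of 0.84 and 1.53. Both libraries differed from the wild-type mean by over 2-fold in 423 of the higher and 220 of the lower genes. When library 2 was left out, 1 K14-Cre-Twist1 library remained against 3 of wild type, and its spread was taken to be that of wild type. In that fit 27 genes had an FDR under 0.05 (0.18%), 25 higher and 2 lower. Those described beside the keratinocyte genes were Ifi202b, Tnxb, Timp3, Nov, Prelp, Sfrp4, Ccl6, Tppp3, Lrrn4cl, Serpina3n, the non-coding RNA Miat and the mitochondrial ND4. When library 1 was left out instead, 3353 genes, 22.5% of those tested, had an FDR under 0.05 (1573 higher, 1780 lower). The count thus ran from 27 to 3353 with the K14-Cre-Twist1 library that was kept.

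**Figure D3:**
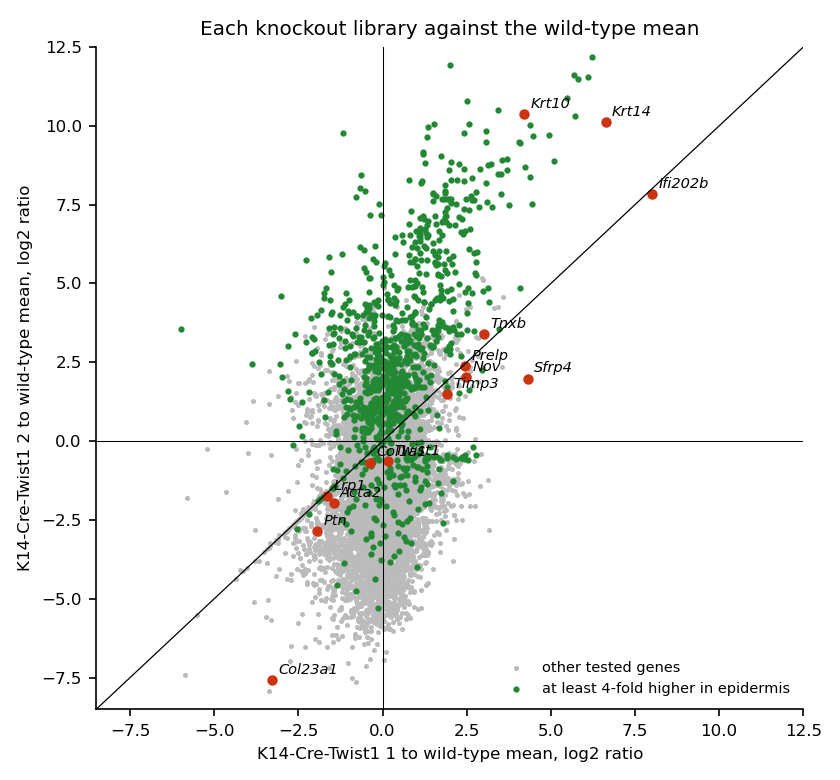
Log2 ratio of K14-Cre-Twist1 library 2 (vertical) against that of library 1 (horizontal), each to the mean of the 3 wild-type libraries with 0.5 CPM added, for the described tested genes (points), with genes at least 4-fold higher in epidermis in green and some named genes in red. Epidermis-high genes spread upward along library 2, as for Krt10, while Tnxb, Timp3, Nov, Prelp, Ptn, Lrp1 and Ifi202b lie near the line of equal ratios.

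A small set of matrix and secreted-factor genes was higher in both K14-Cre-Twist1 libraries by a like amount. Tnxb, on chromosome 17, encodes tenascin X, a glycoprotein that ties collagen fibrils together. It was at 6.25, 5.58 and 8.18 CPM in WT and 57.9 and 74.2 CPM in KO, and rose by a log2 fold change of 3.30 ± 0.38 (FDR 0.0474), or 3.10 (FDR 0.0191) without library 2. Timp3, on chromosome 10, encodes a matrix-bound inhibitor of metalloproteinases. Its values were 139, 113 and 143 CPM in wild type and 502 and 374 CPM in K14-Cre-Twist1, or a log2 fold change of 1.73 ± 0.23, and the FDR was 0.0979, or 0.00808 without library 2. The gene lies within the span of Syn3, which runs on the opposite strand. Nov (CCN3), a secreted CCN matricellular protein, was at 31.4, 31.8 and 54.3 CPM in WT and 222 and 161 CPM in KO (log2 fold change 2.29 ± 0.31, FDR 0.106). Prelp, a small leucine-rich proteoglycan that anchors basement membranes to connective tissue, was at 19.4, 26.9 and 10.8 CPM in wild type and 107 and 101 CPM in K14-Cre-Twist1 (log2 fold change 2.46 ± 0.37, FDR 0.121). For each of these 4 genes the lowest K14-Cre-Twist1 value lay well above the highest wild-type value.

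Other genes were higher in both libraries but less evenly. Sfrp4, a secreted antagonist of Wnt, was at 3.21, 2.91 and 2.67 CPM in WT and 67.4 and 13.1 CPM in KO, with a log2 fold change of 3.76 ± 0.78 (FDR 0.217) and of 4.51 (FDR 0.00313) without library 2, in which it was lower. Ccl6, a chemokine of myeloid cells, was at 41.7, 38.7 and 37.6 CPM in wild type and 186 and 99.2 CPM in K14-Cre-Twist1 (log2 fold change 1.86 ± 0.31). The genes Cd109, Cpe and Nrn1, singled out after their values were seen, had log2 fold changes of 1.25 ± 0.21, 1.79 ± 0.34 and 3.22 ± 0.60. Cd109, a membrane-anchored co-receptor of TGF-β, was at 106, 95.03 and 104 CPM in WT and 236 and 248 CPM in KO. These genes passed the unadjusted threshold with p between 2.9e-04 and 0.00116, and none of the 5 had an FDR under 0.05 in the comparison of 2 with 3 libraries. Against the further wild-type libraries the log2 fold changes were 2.403 for Sfrp4, 1.09 for Nrn1, 0.38 for Cd109, 0.32 for Ccl6 and -0.03 for Cpe, which there turned in sign.

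Among genes that were lower in both libraries, Ptn stood out by size and level. Ptn, on chromosome 6, encodes pleiotrophin, a heparin-binding growth factor of mesenchyme and a component of dermal papilla signatures. It was at 1051, 600.0 and 747 CPM in wild type and 206 and 109.8 CPM in K14-Cre-Twist1, a log2 fold change of -2.34 ± 0.38 (unadjusted p = 2.4e-04, FDR 0.149), and -1.96 without library 2. Lrp1, a large endocytic receptor that clears proteases and matrix fragments, was at 1152, 1417 and 833 CPM in WT and 360.3 and 339.9 CPM in KO (log2 fold change -1.70 ± 0.30). Fbn2, a fibrillin of elastic microfibrils, was at 321, 238 and 259 CPM in wild type and 115 and 89.2 CPM in K14-Cre-Twist1 (log2 fold change -1.42 ± 0.25). Emilin1, an elastic fiber glycoprotein, was at 362, 246 and 250.4 CPM in WT and 119 and 101 CPM in KO (log2 fold change -1.38 ± 0.27). Nid2, a linker of basement membranes, was at 509.6, 364 and 382 CPM in wild type and 185 and 179 CPM in K14-Cre-Twist1 (log2 fold change -1.20 ± 0.24). In the 3 wild-type libraries no value of these 5 genes reached down to a K14-Cre-Twist1 value. Over the alternative fits the log2 fold change ran from -2.87 to -1.24 for Ptn, -1.88 to -0.33 for Lrp1 and -1.93 to -1.25 for Fbn2. For Emilin1 it ran from -1.51 to -0.27 and for Nid2 from -1.29 to -0.62. All 5 passed the unadjusted threshold also without library 2, with p between 2.1e-04 and 0.00181, and none had an FDR under 0.05 in either fit.

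Because Twist1 binds E-boxes (CANNTG, which reads the same on both strands), the RefSeq promoter windows of 300 bases around each gene's start on GRCm38.p6 were searched for these letters in 2 of the higher genes and in the lower gene Ptn. They are printed 5′ to 3′ on the gene's strand with each match in capitals, to show what the windows of genes with opposite differences hold. The Tnxb start used by RefSeq's table lies inside the span of the gene.
Tnxb (chr17:34670285-34670584, + strand): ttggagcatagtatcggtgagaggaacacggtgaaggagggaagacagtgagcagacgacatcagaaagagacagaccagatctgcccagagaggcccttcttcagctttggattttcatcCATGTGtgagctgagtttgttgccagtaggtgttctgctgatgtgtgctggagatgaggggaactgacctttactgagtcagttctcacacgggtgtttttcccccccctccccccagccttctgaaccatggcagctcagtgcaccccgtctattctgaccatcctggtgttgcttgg
Timp3 (chr10:86300162-86300461, + strand): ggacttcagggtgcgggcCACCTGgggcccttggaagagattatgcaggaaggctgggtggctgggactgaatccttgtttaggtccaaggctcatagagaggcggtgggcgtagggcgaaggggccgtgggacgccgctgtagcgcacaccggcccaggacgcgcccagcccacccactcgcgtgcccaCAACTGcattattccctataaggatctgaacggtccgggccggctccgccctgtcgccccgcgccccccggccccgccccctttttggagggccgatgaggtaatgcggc
Ptn (chr6:36810130-36810429, - strand): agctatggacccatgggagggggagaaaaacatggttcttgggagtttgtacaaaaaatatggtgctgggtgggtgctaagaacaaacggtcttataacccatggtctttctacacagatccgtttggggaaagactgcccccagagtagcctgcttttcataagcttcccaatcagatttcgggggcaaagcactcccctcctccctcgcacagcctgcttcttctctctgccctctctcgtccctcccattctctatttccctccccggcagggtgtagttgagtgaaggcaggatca
The Tnxb window held 1 match, the Timp3 window 2 and the Ptn window 0. At least 1 match occurred in 72.1% of all 27025 promoter windows and in 63.5% of the 10780 windows of tested genes. Leaving out epidermis-high genes, the share was 65.7% for the higher genes (362 windows) and 59.1% for the lower genes (492 windows). A match is a description of the sequence and no measure of binding, and the deletion is in keratinocytes, not in the cells of the dermis.

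Collagens were lower more often than all tested genes against the first 3 wild-type libraries, and not against the further ones. Of 38 tested collagen genes, 10 were lower and 1 higher, with a median log2 fold change of -0.60. The median log2 ratio to wild type was -0.40 in library 1 and -1.14 in library 2, against -0.00341 and -0.29 over all tested genes. The most abundant fibrillar collagens did not pass: Col1a1 was at 27569, 24051 and 34854 CPM in WT and 22416 and 17926 CPM in KO (log2 fold change -0.52 ± 0.66), and Col3a1 was at 45093, 38683 and 49769 CPM in wild type and 62830 and 34544 CPM in K14-Cre-Twist1 (log2 fold change 0.13 ± 0.83). Col12a1, which decorates collagen I fibrils, was at 7724, 6521 and 4979 CPM in WT and 2643 and 1226 CPM in KO, with a log2 fold change of -1.73 ± 0.47 (unadjusted p = 0.00598). Col15a1, a collagen of vascular basement membranes, was at 498, 616 and 374 CPM in wild type and 255 and 151 CPM in K14-Cre-Twist1 (log2 fold change -1.29 ± 0.32). Col23a1, a transmembrane collagen, was at 124, 111 and 52.7 CPM in WT and 9.34 and 0 CPM in KO (log2 fold change -4.39 ± 0.85), with library 2 at 0. The one higher member was Col17a1, the hemidesmosomal collagen of basal keratinocytes, at 0, 0.494 and 0 CPM in wild type and 22.03 and 314 CPM in K14-Cre-Twist1. Without library 2, 7 collagens were lower and 1 was higher. Set against the further wild-type libraries, 0 of 37 were lower and 3 higher by edgeR at an unadjusted p under 0.05, with a median log2 fold change of -0.32.

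Genes that cross-link and process collagen were lower mainly in library 2. Of 28 tested, 4 were lower and 1 higher (median log2 fold change -0.44), and without library 2 2 were lower and 2 higher (median -0.07). Lox, the lysyl oxidase that cross-links collagen and elastin, was at 609.6, 439 and 508 CPM in WT and 312 and 204 CPM in KO (log2 fold change -1.01 ± 0.27, unadjusted p = 0.00617), and was the member whose difference also held against the further wild-type libraries, with 1005 and 1045 CPM and a log2 fold change of -1.94 (unadjusted p = 3.76e-04). Bmp1, the procollagen C-proteinase, was at 1295, 1311 and 882 CPM in wild type and 669 and 619.7 CPM in K14-Cre-Twist1 (log2 fold change -0.85 ± 0.27). P4ha2, a prolyl hydroxylase subunit, was the higher member at 75.3, 72.4 and 124 CPM in WT and 201 and 133 CPM in KO. In the matricellular and elastic fiber group, 4 of 37 genes were higher and 5 lower, and 6 and 6 without library 2. The higher members were Tnxb, Eln, Efemp1 and Has2. Eln, the gene of elastin, was at 106, 86.3 and 110.2 CPM in wild type and 167 and 259 CPM in K14-Cre-Twist1 (log2 fold change 1.08 ± 0.26), opposite in sign to Fbn2 and Emilin1 of the same fibers. Postn, Sparc and Fn1, abundant glycoproteins of wound matrix, had log2 fold changes of -0.22, 0.03 and -0.40, each with an unadjusted p above 0.2. Thbs1, an activator of latent TGF-β, was at 819.6, 1209.5 and 379 CPM in WT and 305 and 72.9 CPM in KO (log2 fold change -2.09 ± 0.66).

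Matrix proteases and their inhibitors held 10 lower and 3 higher genes among 45 tested, with a median log2 fold change of -0.43, and 8 lower and 5 higher ones without library 2. Mmp13, an interstitial collagenase, was at 105, 1079 and 133 CPM in wild type and 38.97 and 8.66 CPM in K14-Cre-Twist1 (log2 fold change -4.21 ± 1.20), and the high wild-type mean rested on library 2 of wild type. Mmp10, stromelysin 2, was at 11.4, 219.9 and 23.9 CPM in WT and 0.968 and 0 CPM in KO (log2 fold change -7.47 ± 1.91), with the same wild-type library highest. Mmp9, a gelatinase carried by neutrophils and macrophages, was at 289, 471 and 145 CPM in wild type and 76.2 and 135 CPM in K14-Cre-Twist1 (log2 fold change -1.51 ± 0.49), while the further wild-type libraries held only 29.98 and 40.5 CPM. Mmp2 and Mmp14, made by fibroblasts, had log2 fold changes of -0.45 ± 0.34 and -0.72 ± 0.32 and did not pass. Serpine2, an inhibitor of thrombin and urokinase, was at 588, 929 and 363 CPM in WT and 232 and 133 CPM in KO (log2 fold change -1.78 ± 0.43). Timp2 was lower (log2 fold change -0.86 ± 0.29) where Timp3 was higher. Of the 17 genes that the study grouped under metalloproteinase inhibition, a list it drew from the epidermis libraries of this series, 5 were lower and 1, Timp3, was higher. For both lists the share over all tested genes was 4.54% lower and 6.98% higher.

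Integrins and laminins went both ways, where 6.98% of all tested genes were higher and 4.54% lower. Of 35 tested, 7 were higher and 3 lower, and 3 and 2 without library 2. Lama3 and Lamb3, chains of the epidermal laminin 332, were higher, Lama3 at 5.47, 7.75 and 7.95 CPM in wild type and 23.4 and 74.2 CPM in K14-Cre-Twist1 and Lamb3 at 0, 0.790 and 0 CPM in WT and 3.92 and 21.5 CPM in KO. Lama2, a laminin chain of mesenchyme, was also higher, at 69.4, 68.2 and 105 CPM in wild type and 174 and 120.0 CPM in K14-Cre-Twist1 (log2 fold change 0.86 ± 0.29). The leukocyte integrins Itgal and Itgam were lower, with log2 fold changes of -2.06 ± 0.57 and -1.17 ± 0.50. Itgb1, the common β subunit of fibroblast and keratinocyte integrins, was at 1349.6, 1049.6 and 1059 CPM in WT and 1142 and 746 CPM in KO and did not pass.

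Contractile genes were lower against the first 3 wild-type libraries and went both ways against the further ones. Of 36 tested genes of mechanical signaling and contractility, 12 were lower and 0 higher, where 4.54% and 6.98% of all tested genes were. Their median log2 fold change was -0.67, with medians of -0.45 in library 1 and -0.94 in library 2. Acta2, the smooth muscle actin that marks myofibroblasts and mural cells, was at 2001, 915 and 1050.2 CPM in wild type and 486 and 339.8 CPM in K14-Cre-Twist1 (log2 fold change -1.68 ± 0.40, unadjusted p = 0.00289). Tagln was at 650.1, 298 and 383 CPM in WT and 207 and 99.7 CPM in KO (log2 fold change -1.53 ± 0.43), and the actin-binding Cnn1 at 50.6, 19.3 and 8.14 CPM in wild type and 1.98 and 0.314 CPM in K14-Cre-Twist1. Myh9, the non-muscle myosin heavy chain, was at 1310.3, 1339.7 and 1112 CPM in WT and 707 and 505 CPM in KO (log2 fold change -1.05 ± 0.27). The stretch-activated channel genes Piezo1 and Piezo2 were lower as well, Piezo2 at 56.2, 68.9 and 80.3 CPM in wild type and 28.1 and 17.9 CPM in K14-Cre-Twist1 (log2 fold change -1.57 ± 0.35). Without library 2, 9 members were lower. Against the further wild-type libraries, however, 2 were higher and 2 lower with a median of 0.05, and Acta2 turned: those libraries held 247 and 182 CPM, below both K14-Cre-Twist1 values (log2 fold change 0.997). Piezo2 kept its direction there, with 69.9 and 81.04 CPM and a log2 fold change of -1.66 (unadjusted p = 0.00478).

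**Figure D4:**
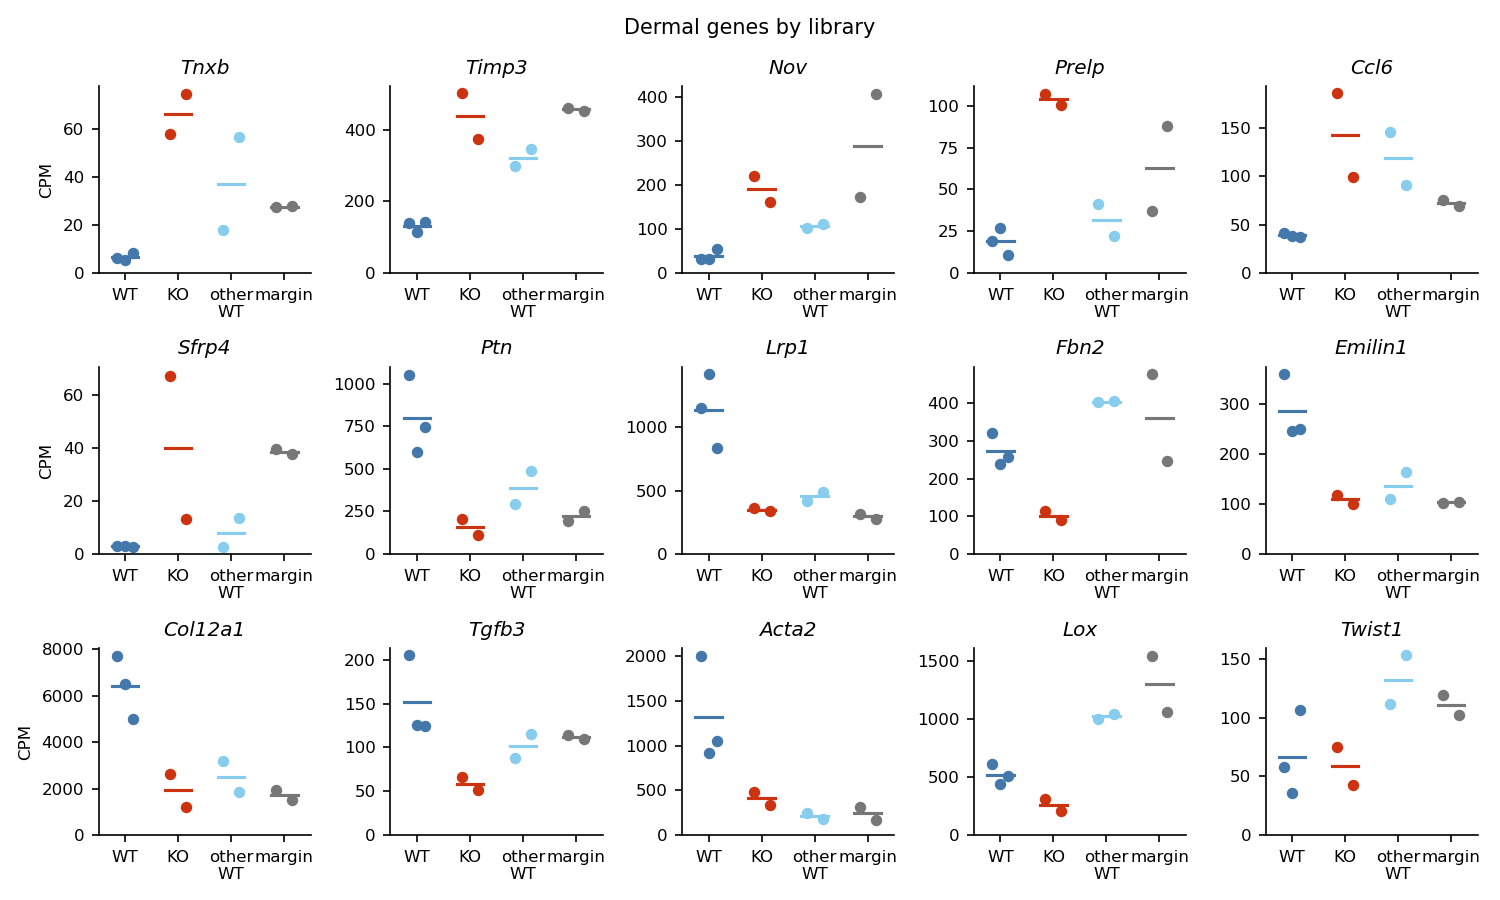
CPM of 15 dermal genes by library (points) with group means (lines) in wild-type (WT, 3 libraries), K14-Cre-Twist1 (KO, 2), further wild-type (2) and wound margin dermis (2), each axis starting at 0. KO values lie apart from the 3 WT values for Tnxb, Timp3, Ptn and Lrp1, with the further WT libraries between the groups for these 4 genes, as for Lrp1 at 420.3 and 491 CPM. Fbn2 and Lox are lower in KO than in all 5 WT libraries.

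In the Wnt pathway genes went both ways. Of 41 tested ligands, receptors and inhibitors, 7 were higher and 6 lower, and 2 and 4 without library 2. With epidermis-high genes removed, 2 of 33 tested were higher and 7 lower, where 5.26% and 5.45% of all genes tested there were. Epidermis-high genes are by definition low in the same wild-type libraries, so the fall in higher genes is partly built in. The higher ligands in the first fit were Wnt3, Wnt4, Wnt7b, Wnt10a and Wnt16. Wnt4, at 11.8, 2.02 and 4.15 CPM in WT and 19.1 and 58.7 CPM in KO, and Wnt10a, at 2.29, 1.58 and 4.42 CPM in wild type and 2.95 and 29.9 CPM in K14-Cre-Twist1, are both also made by epidermis, and Wnt10a in library 1 lay within the wild-type range. Wnt2b, a ligand of mesenchyme, was at 31.98, 16.4 and 18.8 CPM in WT and 7.89 and 0 CPM in KO (log2 fold change -2.56 ± 0.94). Wnt5a, the main ligand of the β-catenin-independent branch, was at 112, 103 and 87.99 CPM in wild type and 83.8 and 16.9 CPM in K14-Cre-Twist1 and did not pass (unadjusted p = 0.103). The receptors Fzd1 and Fzd2 were lower with log2 fold changes of -0.95 ± 0.30 and -0.90 ± 0.36. Lrp6, the co-receptor that receives canonical Wnt, was at 144, 129 and 138 CPM in WT and 67.9 and 55.4 CPM in KO (log2 fold change -1.15 ± 0.24, unadjusted p = 0.00128), and remained under the unadjusted threshold without library 2 (unadjusted p = 0.00320). The inhibitor Sfrp1 was at 113, 216 and 82.5 CPM in wild type and 38.5 and 3.68 CPM in K14-Cre-Twist1 (log2 fold change -2.71 ± 0.79), opposite to its relative Sfrp4.

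Among 19 targets and effectors of β-catenin, 3 were higher and 3 lower, and 3 and 1 without library 2. Apcdd1, Nkd1 and Ccnd1, which the pathway induces, were the higher ones. Apcdd1, a feedback inhibitor at the membrane, was at 121, 54.8 and 178 CPM in WT and 257 and 261 CPM in KO (log2 fold change 1.13 ± 0.41). Axin2, another feedback target, was at 27.9, 13.2 and 33.8 CPM in wild type and 40.1 and 25.8 CPM in K14-Cre-Twist1 and did not pass. Lef1, the nuclear partner of β-catenin in hair-forming dermis and epidermis, was low in every library, at 2.29, 0.592 and 3.53 CPM in WT and 1.31 and 0 CPM in KO. Wisp1, a CCN protein induced by Wnt1, was lower in both but mainly in library 2, at 262, 238 and 249 CPM in wild type and 183 and 47.6 CPM in K14-Cre-Twist1. Of 27 genes that the study grouped under Wnt/β-catenin signaling from its epidermis libraries, 10 were lower and 3 higher, and 7 and 0 without library 2. Lrp1, Lrp6, Tgfb3 and Bmpr2 were among the lower ones.

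In BMP and TGF-β signaling 8 of 39 tested genes were lower and 1 higher, and 6 and 1 without library 2. The share over all tested genes was 4.54% lower and 6.98% higher. All 3 TGF-β ligands were lower. Tgfb3 was at 206, 126 and 125 CPM in WT and 65.8 and 51.8 CPM in KO (log2 fold change -1.37 ± 0.31, unadjusted p = 0.00232), Tgfb2 at 82.6, 61.3 and 71.7 CPM in wild type and 32.97 and 35.3 CPM in K14-Cre-Twist1 (log2 fold change -1.08 ± 0.29) and Tgfb1 at 104, 126 and 97.4 CPM in WT and 66.7 and 75.5 CPM in KO (log2 fold change -0.62 ± 0.25). In the further wild-type libraries Tgfb3 stood at 87.9 and 115 CPM, above the K14-Cre-Twist1 values, whereas Tgfb1 stood at 61.4 and 51.2 CPM and Tgfb2 at 22.8 and 24.3 CPM, below them. Grem1, a secreted BMP antagonist, was at 95.2, 291 and 55.5 CPM in wild type and 44.1 and 43.1 CPM in K14-Cre-Twist1 (log2 fold change -1.75 ± 0.65), and the further wild-type libraries had less, 10.5 and 31.96 CPM. Bmp3, an inhibitory BMP ligand, was the higher member, at 1.41, 0.395 and 0.426 CPM in WT and 13.1 and 14.1 CPM in KO (log2 fold change 4.10 ± 0.84, unadjusted p = 4.86e-04), but 1 further wild-type library reached 15.1 CPM. The receptor Tgfbr2 was at 605, 429 and 545.8 CPM in wild type and 650.4 and 361 CPM in K14-Cre-Twist1 and did not pass.

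Genes of Hedgehog and FGF signaling and of the dermal condensate held few genes past the threshold. Of 29 Hedgehog, FGF and EDA genes tested, 3 were higher, Fgfr3, Fgfr4 and Edaradd, and 1, the Hedgehog transducer Smo, was lower, at 137, 125 and 134 CPM in WT and 98.2 and 66.7 CPM in KO. Gli1, the read-out of Hedgehog activity, was at 5.79, 6.96 and 5.39 CPM in wild type and 9.49 and 0 CPM in K14-Cre-Twist1, and its receptor Ptch1 at 23.5, 14.6 and 12.9 CPM in WT and 10.8 and 22.2 CPM in KO. None of 24 tested genes of the dermal condensate and papilla had an unadjusted p under 0.05 by edgeR in either direction (median log2 fold change -0.41, and -0.37 in library 1 and -0.76 in library 2), and 4 of them had lower values in both K14-Cre-Twist1 libraries than in all 3 of wild type, where 16.2% of all tested genes did. With the further wild-type libraries in their place 2 were higher and 1 lower. Without library 2, 1 of 28, the proteoglycan gene Sdc1, was lower. The proteoglycan gene Vcan, expressed by papilla and by wound fibroblasts, had a log2 fold change of -0.30 ± 0.38 with overlapping groups. Alpl, the alkaline phosphatase whose stain marks new papillae, was at 5.08, 8.34 and 2.09 CPM in wild type and 4.36 and 10.4 CPM in K14-Cre-Twist1, and Sox2, a papilla regulator, had too few reads to be tested.

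**Figure D5:**
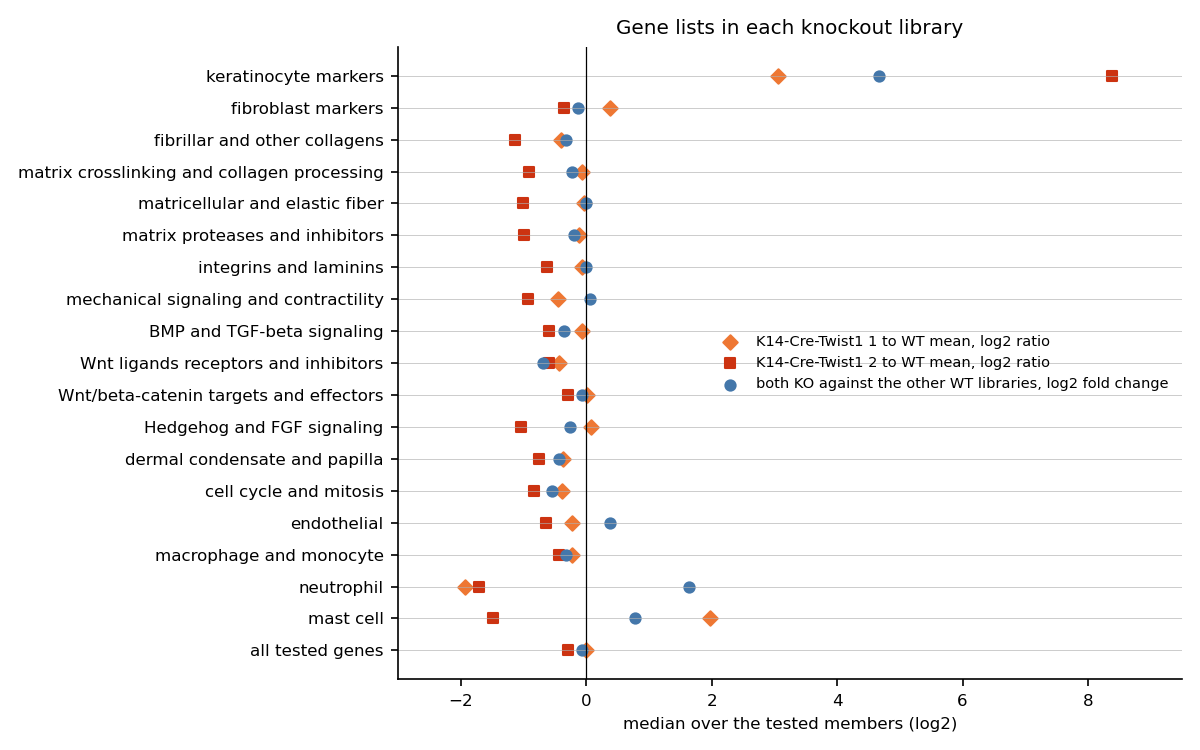
Median over the tested members of 18 gene lists and of all tested genes (log2): ratio of each K14-Cre-Twist1 library to the mean of the 3 wild-type libraries (diamonds and squares), and fold change of both against the further wild-type libraries (circles). Collagens lie at -0.40 and -1.14 in libraries 1 and 2, and the contractile and neutrophil lists lie below 0 against the first wild-type libraries and at 0.05 and 1.64 against the further ones.

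Fibroblast markers were abundant in all 5 libraries. Of 22 fibroblast markers, 3 were higher (Dpt, Dpp4 and Clec3b) and 1, Pdgfra, was lower, and their summed level was 96679 to 124950 CPM in wild type, 120690 CPM in K14-Cre-Twist1 library 1 and 76034 CPM in library 2. Without library 2, 6 were higher and 0 lower. Dpt, dermatopontin, was at 453, 447 and 834 CPM in WT and 1421 and 793 CPM in KO. Endothelial genes were lower in 6 of 23 cases and higher in 0, where 4.54% and 6.98% of all tested genes were. Cdh5, the cadherin of endothelial junctions, was at 504, 540.6 and 396 CPM in wild type and 326 and 282 CPM in K14-Cre-Twist1, while Pecam1 was at 435, 516 and 425 CPM in WT and 598 and 363 CPM in KO. Without library 2, 1 endothelial gene was lower and 0 were higher. Set against the further wild-type libraries, 5 endothelial genes were higher and 0 lower, where 5.53% and 3.14% of all genes tested there were. Among 11 pericyte and smooth muscle genes 3 were lower and 0 higher, against 3 and 2 without library 2, and the pericyte marker Rgs5 was at 1042, 1025 and 1288 CPM in wild type and 1374 and 1293 CPM in K14-Cre-Twist1.

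Neutrophil genes were among those that separated the first wild-type libraries from the rest. Of 14 tested, 5 were lower and 3, the stefin genes Stfa1, Stfa2 and Stfa3, were higher. With epidermis-high genes removed, 11 were tested, 0 of them higher and 6 lower (median log2 fold change -2.18). The fall in higher genes is partly built in here too, by the definition of epidermis-high. The stefins are near-identical copies that can share reads, and the median log2 fold change of the list was -1.63. Without library 2, 5 were lower and 1 higher. Against the further wild-type libraries the list turned, with 4 of 13 higher, 0 lower and a median of 1.64. S100a9, a subunit of calprotectin in neutrophils, was at 49.8, 318 and 32.7 CPM in WT and 9.198 and 18.3 CPM in KO (log2 fold change -3.26 ± 1.04). Csf3r, the receptor of the neutrophil growth factor G-CSF, was at 63.4, 187 and 43.5 CPM in wild type and 25.1 and 16.7 CPM in K14-Cre-Twist1 (log2 fold change -2.22 ± 0.65). In both genes wild-type library 2 was several-fold above the other wild-type libraries, and the further wild-type libraries held 2.41 and 4.19 CPM of S100a9 and 25.7 and 14.9 CPM of Csf3r.

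The 15 genes named for the largest lower fold change followed the same wild-type library in part. They were Trem1, Tarm1, Trpm2, Stk32b, Stfa2l1, Mmp10, Ankrd33b, Acod1, Saa3, Siglece, Fpr1, Rtn4rl1, Ggact, Cnn1 and Hp, and all had an FDR above 0.17. All but Stfa2l1, Ankrd33b and Cnn1 had no read in K14-Cre-Twist1 library 2, where a value of 0 is not read as absence of the RNA. The size of these fold changes, and so the ranking, rests in part on those values of 0. Trem1, Tarm1, Siglece and Fpr1 encode receptors of neutrophils and other myeloid cells. Trem1 was at 7.17, 50.7 and 8.68 CPM in WT and 0 and 0 CPM in KO, and Fpr1 at 2.65, 14.7 and 6.202 CPM in wild type and 0.484 and 0 CPM in K14-Cre-Twist1. Saa3, an acute phase protein of inflamed tissue, was at 142, 571 and 93.9 CPM in WT and 16.4 and 0 CPM in KO (log2 fold change -5.06 ± 1.20), and the acute phase gene Hp at 77.9, 239.8 and 48.2 CPM in wild type and 11.4 and 0 CPM in K14-Cre-Twist1 (log2 fold change -4.44 ± 1.07). The further wild-type libraries held 3.01 and 2.55 CPM of Saa3 and 1.203 and 2.996 CPM of Hp, below K14-Cre-Twist1 library 1. Rtn4rl1, a GPI-anchored receptor related to the Nogo receptor, had even values in the first wild-type libraries, 27.1, 23.3 and 25.4 CPM, against 2.08 and 0 CPM (log2 fold change -4.65 ± 0.95). The further wild-type libraries held 11.8 and 1.60 CPM of Rtn4rl1, the latter below K14-Cre-Twist1 library 1. Against them its log2 fold change was -2.70 (edgeR, unadjusted p = 0.156).

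Mast cell genes were higher in 4 of 9 cases and lower in 0, and in 5 of 10 without library 2. The share over all tested genes was 6.98% higher and 4.54% lower in the first comparison. In the test against the further wild-type libraries 0 of 7 mast cell genes were higher and 0 lower by edgeR at an unadjusted p under 0.05. The summed level of the list was 299.9 and 108 CPM in K14-Cre-Twist1, 64.1, 202 and 105 CPM in wild type and 116 and 217 CPM in the further libraries, so that library 2 lay within the wild-type range. Cma1, a mast cell chymase, was at 4.695, 14.96 and 14.9 CPM in WT and 65.8 and 31.8 CPM in KO (log2 fold change 2.10 ± 0.56). Tpsb2, a tryptase that shares sequence with Tpsab1, was at 3.07, 10.1 and 12.6 CPM in wild type and 37.1 and 29.5 CPM in K14-Cre-Twist1 (log2 fold change 1.98 ± 0.58). Mcpt4 was at 4.13, 18.7 and 19.5 CPM in WT and 74.2 and 2.06 CPM in KO, higher in library 1 and low in library 2. The margin libraries had 94.2 and 69.9 CPM of Cma1. Of 27 macrophage and monocyte genes, 1, Retnla, was higher and 1, Itgam, was lower, and against the further wild-type libraries 5 were higher and 2 lower. Lyz2, abundant in macrophages, was at 2982, 3724 and 3240.1 CPM in wild type and 2288 and 1745 CPM in K14-Cre-Twist1 (log2 fold change -0.72 ± 0.31, unadjusted p = 0.0520). Of 41 cytokines and chemokines 3 were higher and 3 lower, the lower ones Il1b, Cxcl5 and Cxcl12. Il1b was at 19.2, 167 and 31.6 CPM in WT and 15.5 and 4.75 CPM in KO, with wild-type library 2 again the highest.

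Ifi202b separated K14-Cre-Twist1 dermis from every wild-type center library. This interferon-inducible gene on chromosome 1, whose expression is known to differ between inbred strains, had no read in the 3 wild-type libraries or in the further 2, and was at 129 and 113 CPM in K14-Cre-Twist1 dermis, at least 799.8-fold higher than the floor (FDR 0.0184). It was the 1 gene with an FDR under 0.05 against the further wild-type libraries (FDR 0.0418). The margin libraries held 2.04 and 3.63 CPM and wild-type epidermis 34.6 to 297 CPM. It has close paralogs among the Ifi200 genes, so that its reads are uncertain where they could be shared. The other interferon-stimulated genes did not move with it: of 42 tested, 0 were higher and 1, Rsad2, was lower. Glo1, another gene that varies among mouse strains, was at 22.9, 20.7 and 20.97 CPM in wild type and 51.5 and 72.1 CPM in K14-Cre-Twist1 (log2 fold change 1.52 ± 0.32), with 1.07 against the further wild-type libraries.

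The lower genes were longer than the rest. The median length of the longest annotated transcript was 4925 bases for the 643 lower genes, 2903 for the 988 higher genes and 3384 for all tested genes, of which 97.2% had a length. Leaving out epidermis-high genes, genes in the longest of 5 length bins had a median log2 ratio to wild type of -0.16 in K14-Cre-Twist1 library 1 and -0.56 in library 2, and the shortest 0.04 and -0.25. A wild-type library set against the other two gave -0.10 to 0.04 for that bin. Lrp1, Fbn2 and Col12a1, named above among the lower genes, have transcripts of 14888, 11041 and 11511 bases. All 7 tested mitochondrial mRNAs were higher, ND4 at 1817, 1694 and 2343 CPM in WT and 6157 and 5148 CPM in KO. The part of transcript length in these results was not tested.

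The position of a gene in the wild-type wound was read from the further wound center and the margin libraries, which share no library with the comparison. Between these, 125 of 14698 tested genes had an FDR under 0.05 (0.85%), 17 higher and 108 lower at the center. Of the higher genes that are epidermis-high, 415 of 459 (90.4%) had a lower fitted level at the center than at the margin, as did 83.9% of all tested epidermis-high genes. For higher genes that are not epidermis-high it was 246 of 495 (49.7%), against 48.9% of all such genes. Of the lower genes, 413 of 635 (65.04%) were higher at the center, against 51.1%. These shares describe the direction of fitted values, whether or not a gene passed a test. Ptn, lower in K14-Cre-Twist1, had 192 and 253 CPM at the margin and 292 and 486 CPM at the further centers (center against margin log2 fold change 0.76, unadjusted p = 0.0131). Sfrp4, higher in K14-Cre-Twist1, had 39.6 and 37.9 CPM at the margin and 2.54 and 13.4 CPM at the centers (log2 fold change -2.35, unadjusted p = 0.00113), and Nov 172 and 407 against 102 and 111 CPM. Twist1 had 119.6 and 102 CPM at the margin.

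Replacing the 3 wild-type libraries by the further 2 left few of the dermal differences under the unadjusted threshold. The further libraries form a set of their own with more reads on no gene, so set and genotype cannot be told apart there. A difference not called against them is not thereby shown to be absent. Against those, 5.53% of 13802 tested genes were higher and 3.14% lower at an unadjusted p under 0.05. Of the genes called in the first comparison, 384 of 968 higher ones and 81 of 626 lower ones that could be tested had the same direction and an unadjusted p under 0.05 here too, and 236 of 966 and 318 of 643 did when K14-Cre-Twist1 library 2 was left out of the first comparison. Both comparisons use the K14-Cre-Twist1 libraries. Tnxb went down to a log2 fold change of 0.89 (unadjusted p = 0.138), the further libraries holding 17.8 and 56.4 CPM, Timp3 to 0.50 with 297 and 345 CPM, and Lrp1 to -0.33. Prelp stayed at 1.76 (unadjusted p = 0.00249), Ptn at -1.24 (unadjusted p = 0.0133) and Fbn2 at -1.93 (unadjusted p = 1.64e-04). With all 5 wild-type libraries together, Prelp had an FDR of 0.0177 and Ptn of 0.0743. When epidermis-high genes were removed before scaling, 504 of the 507 remaining higher genes and 610 of the 642 lower genes passed the unadjusted threshold again, and 5.26% and 5.45% of all genes tested there did. This fit uses the same counts of the same libraries, so it is no separate check of these genes. Genes less than 4-fold higher in epidermis stayed in it.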

How the data were processed

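RNA was read from hand-separated wound dermis and epidermis with poly(A) libraries. The authors deposited raw read counts per gene symbol for each library (mm10; STAR, version 2.6.1d in the methods and 2.4.1d in the submitters' processing notes; htseq-count 0.6.0; RefSeq genes); the strand option of the counting is not given in the sources used here. The summary lines of the counter were left out. Depth was 19844050 to 28615931 reads on genes.

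Counts were fitted in edgeR 4.0.16 (R 4.3.3) after filterByExpr and TMM scaling, with the quasi-likelihood test on the 2 K14-Cre-Twist1 and 3 wild-type libraries, a prior count of 0.125 with p-values adjusted by Benjamini-Hochberg across every tested gene, as the study used edgeR. The quasi-likelihood estimate was that of edgeR 4 and the study's was that of version 3.26.8. Tables and figures were made with pandas 2.3.3 and matplotlib 3.10.9. On simulated data with the means, dispersions and depths of this comparison, the test recovered 45.9% of 200 genes given a log2 fold change of 3 among 14163 genes. Ratios of single libraries used a pseudocount of 0.5 CPM, and epidermis-high means at least 4-fold higher in the mean of 4 wild-type epidermis libraries. Genes were named by rule: Twist1, the 15 largest fold changes in each direction among genes with an unadjusted p under 0.05 where fewer than 15 had an FDR under 0.05, without overlap and at 5 CPM or more, and, from each gene list, members with an FDR under 0.05, up to 4 in each direction with the lowest FDR and the 4 most abundant. Any further gene in the text was picked with its values in view. The comparison and the gene lists were chosen with earlier results of these data known. P-values measure the spread between these libraries. Alternatives were RLE scaling, no low-count filter or at least 10 counts in every library, DESeq2 1.42.0, edgeR's likelihood ratio and exact tests, the quasi-likelihood estimate of edgeR 3, other sets of wild-type libraries and each library left out. X-inactivation and Y-linked genes are not described, and spiny mouse libraries were not used.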

Additional observations from a re-analysis of the deposited data

How the results depend on the processing

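No paired analysis was possible because the replicate numbers follow accession order and pair no samples. The 8 genes with an FDR under 0.05 became 0 with at least 10 counts in every library (unadjusted p under 0.05 then in 698 higher and 575 lower genes), 2 with the edgeR 3 estimate, 177 with the exact test, 214 with the likelihood ratio test, 787 with DESeq2, 190 against all 5 wild-type libraries and 75 with all 9 dermis libraries in one fit. In alternatives chosen after seeing the data they became 4 with epidermis-high genes removed and 1 against the further wild-type libraries. The split into 7 higher and 1 lower became 399 and 388 with DESeq2. Leaving out 1 library gave 1 to 3353. The 1631 genes at an unadjusted p under 0.05 became 2604 with DESeq2, 2549 with all 9 libraries and 811 to 5663 with 1 library left out. For wild-type center against margin the 125 genes became 738 with DESeq2, 886 with the likelihood ratio test, 497 with the exact test, 54 with the edgeR 3 estimate and 19 to 241 with 1 library left out. The log2 fold change of Twist1 turned to 0.32 without wild-type library 3 and 0.16 without K14-Cre-Twist1 library 2, in a range of -0.66 to 0.32 with 1 library left out. Against the further wild-type libraries Acta2 turned to 0.997, Mmp9 to 1.64, Snai1 to 0.00997, Saa3 to 1.59, Hp to 1.48 and Col3a1 to -0.12, and Col3a1 lay between -0.37 and 0.50 with 1 library left out. The cause was not tested. Over 59 described genes and all alternatives, 655 values kept direction and side of the FDR threshold, 193 newly passed it, 28 no longer did and 9 turned in sign. Of 592 list medians 544 moved by less than the spread. In simulated libraries of this design a log2 fold change of 3 passed correction in 45.9% of genes, which limits what a low count of calls can show.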

Other observations

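Proliferation genes leaned lower. Of 39 cell cycle genes tested, 4 were lower and 0 higher, and 33 had a negative fitted log2 fold change (median -0.61, with -0.40 in library 1 and -0.83 in library 2). Of all 14163 tested genes, 4.54% were lower and 7651 had a negative fitted value. The medians of all tested genes were -0.07 in the fit, -0.00341 in library 1 and -0.29 in library 2. Without library 2, 1 was lower and 0 were higher (median -0.41). Mki67, a marker of cycling cells, was at 192, 168 and 246 CPM in wild type and 133 and 56.6 CPM in K14-Cre-Twist1 (log2 fold change -1.10 ± 0.37), and the mitotic kinase gene Cdk1 at 61.9, 38.7 and 65.4 CPM in WT and 32.05 and 20.4 CPM in KO (log2 fold change -1.08 ± 0.38). Against the further wild-type libraries the median was -0.55, with 6 lower and 0 higher, and Mki67 stood there at 205 and 233 CPM. Interferon-stimulated genes varied within wild type, with the summed list at 1039.9, 1131 and 4634 CPM in wild type and at 2354 and 1925 CPM in K14-Cre-Twist1 dermis, so that wild-type library 3 stood above all.

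Among nerve and fat genes a larger share was higher than the 6.98% of all tested genes, of which 4.54% were lower, but it rested on 3 genes in each list. Median log2 ratios to the wild-type mean were 0.36 in library 1 and 0.09 in library 2 for the Schwann cell list. For the adipocyte list they were 0.24 and 0.11. The Schwann cell list gave 3 higher and 0 lower of 16 tested. Against the further wild-type libraries it gave 0 higher and 1 lower of 16, and the adipocyte list 3 higher and 0 lower of 12. In the adipocyte list (3 higher and 0 lower of 12 tested), Pparg, the master regulator of fat cells, was at 4.66, 10.1 and 8.95 CPM in wild type and 18.4 and 29.1 CPM in K14-Cre-Twist1. Stress and immediate early genes went both ways (4 higher and 4 lower of 25 tested), with Fosl2 at 234, 241 and 189 CPM in WT and 129.7 and 78.6 CPM in KO and Egr1 at 33.8, 42.1 and 40.9 CPM in wild type and 58.7 and 73.4 CPM in K14-Cre-Twist1. In the glycolysis and hypoxia list (3 higher and 0 lower of 29 tested) the higher members were Pfkp, Pdk1 and Egln3, and Egln3, an oxygen sensor that epidermis also expresses, was at 0, 3.55 and 0.930 CPM in WT and 3.78 and 216 CPM in KO. The median log2 ratio of that list was -0.06 in library 1 and 0.41 in library 2. The remaining lists gave 0 higher and 1 lower of 41 tested for oxidative phosphorylation, 0 higher and 2 lower of 4 tested for red blood cells, 3 higher and 1 lower of 7 tested for sebaceous gland, 0 higher and 0 lower of 5 tested for melanocytes, 1 higher and 1 lower of 19 tested for lymphocytes, 0 higher and 0 lower of 15 tested for skeletal muscle, 0 higher and 1 lower of 6 tested for myogenic progenitors, 2 higher and 0 lower of 4 tested for strain-variable genes and 1 higher and 0 lower of 3 tested for hair follicle keratins. Of 27 hair follicle genes in the files 18 had no read in the 3 wild-type libraries, and the summed list held 1027 and 1068 CPM at the margin against 12.1 and 133 CPM in K14-Cre-Twist1 dermis.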
